A study of Mus musculus with 14 samples.

Results

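The genes described here are 40 genes that a cell uses to enter and complete division, read in Lgr5-positive stem cells of the mouse intestine. They were taken by gene symbol from a list of regulators and machinery of G2 phase and mitosis. The list was chosen with earlier results of these data known. Each of the 40 symbols matched 1 Ensembl identifier among the 55335 genes of each count table, and all 40 passed the filter on low counts in both tables. The filter left 17364 genes in the table of the Chrm3 experiment and 16807 in the table of the ageing experiment.

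Polyadenylated RNA was sequenced from 14 libraries of intestinal stem cells sorted for EGFP, whose expression marks cells with an active Lgr5 locus. All 8 libraries of the Chrm3 experiment came from Lgr5CreERT2-IRES-GFP; Chrm3 flox/flox mice, so the WT controls carry the same Cre and the same floxed alleles as the KO. KO mice received tamoxifen (TAM) and WT mice received vehicle, for 3 days before the procedure called ES, and each genotype was studied after ES or without it (NT). What ES and NT abbreviate is not spelled out in the labels, and the series title speaks of chronic stress. The groups were KO ES, KO NT, WT ES and WT NT, with 2 libraries each. The ageing experiment compared old (18 months) with young (2 months) Lgr5CreERT2-IRES-GFP mice, with 3 libraries each. Tamoxifen was given to KO mice only, so its own effect and that of the deletion cannot be told apart. Nothing in the labels ties a library to its own animal. The p-values therefore reflect only how far these libraries vary, which may be technical.

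Division is driven by cyclin-dependent kinase Cdk1 bound to cyclins A2, B1 and B2. Cdc25 phosphatases switch the kinase on, and Foxm1, a transcription factor, raises the expression of many of the genes below. The mitotic kinases Plk1, Aurka and Aurkb then build the spindle and correct chromosome attachments, the spindle checkpoint holds back the ubiquitin ligase APC/C and its activator Cdc20 until every chromosome is attached, and the central spindle finally guides the cleavage of the cell. Lgr5-positive cells at the base of the intestinal crypt divide often, and their mRNAs of this kind are high in G2 and mitosis and low in G1 and in resting cells. Many promoters of such genes carry a CHR element (cell cycle genes homology region) and CCAAT boxes, through which the DREAM complex represses them in resting cells and B-Myb, NF-Y and Foxm1 activate them later in the cycle.

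Promoter windows of 300 bases, with 250 before and 50 after the annotated start, were found in the RefSeq table (GRCm38.p6, the assembly of mm10) for 33 of the 40 genes. The 7 genes without a window there are Ccna2, Tpx2, Incenp, Kif20a, Cdc25c, Foxm1 and Aurkb. Windows were searched on both strands for CHR words, meaning TTTGAA or its variant spelling TTCGAA, and for CCAAT boxes. The 6 stretches shown here are the 150 bases before the start, read 5′ to 3′ along the gene. Cdc20, Cdk1, Kif11, Ube2c and Top2a hold both motifs in this stretch, and Nusap1, the gene with the second smallest p for KO against WT in NT, holds neither. Capitals mark the CHR words, where TTCAAA is the first word read on the other strand, and the CCAAT boxes, which read ATTGG there.
Cdc20, chr4:118437344-118437493, minus strand: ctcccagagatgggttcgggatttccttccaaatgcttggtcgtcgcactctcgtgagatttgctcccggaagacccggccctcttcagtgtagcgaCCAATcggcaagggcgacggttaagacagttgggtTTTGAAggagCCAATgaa
Cdk1, chr10:69352913-69353062, minus strand: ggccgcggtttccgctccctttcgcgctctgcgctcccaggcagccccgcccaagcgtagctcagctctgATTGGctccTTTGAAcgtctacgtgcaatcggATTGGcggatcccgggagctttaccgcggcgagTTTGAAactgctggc
Kif11, chr19:37376232-37376381, plus strand: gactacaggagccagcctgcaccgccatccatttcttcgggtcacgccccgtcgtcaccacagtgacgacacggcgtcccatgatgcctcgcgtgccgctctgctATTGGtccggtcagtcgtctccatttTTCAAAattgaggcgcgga
Ube2c, chr2:164769779-164769928, plus strand: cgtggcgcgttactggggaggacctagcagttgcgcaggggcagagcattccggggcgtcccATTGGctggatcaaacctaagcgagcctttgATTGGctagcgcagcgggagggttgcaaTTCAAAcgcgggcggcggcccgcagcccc
Top2a, chr11:99024190-99024339, minus strand: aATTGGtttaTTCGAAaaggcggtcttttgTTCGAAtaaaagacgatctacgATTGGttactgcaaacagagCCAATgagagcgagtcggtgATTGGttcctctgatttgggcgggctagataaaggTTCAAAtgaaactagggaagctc
Nusap1, chr2:119618148-119618297, plus strand: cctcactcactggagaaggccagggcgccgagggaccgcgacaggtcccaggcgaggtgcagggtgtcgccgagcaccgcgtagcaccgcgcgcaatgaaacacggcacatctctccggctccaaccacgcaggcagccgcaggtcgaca

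A CHR word was present in 26 of the 33 windows (78.8%), against 19.4% of all 27025 promoter windows searched. Each gene entered with only the first start listed for it, which need not be its main start. A CCAAT box was present in 25 of 33 (75.8%), against 37.9% of all windows. At least 2 CCAAT boxes were present in 16 of 33 (48.5%), against 12.2% of all windows, and both motifs together in 23 of 33 (69.7%), against 7.7%. Ube2c and Top2a had 6 CCAAT boxes each, and Hmmr had 5. Birc5, Mad2l1, Nuf2, Nusap1 and Pttg1 had no match to either motif in their windows. These matches describe the letters and were not tested as binding sites.

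**Figure D1:**
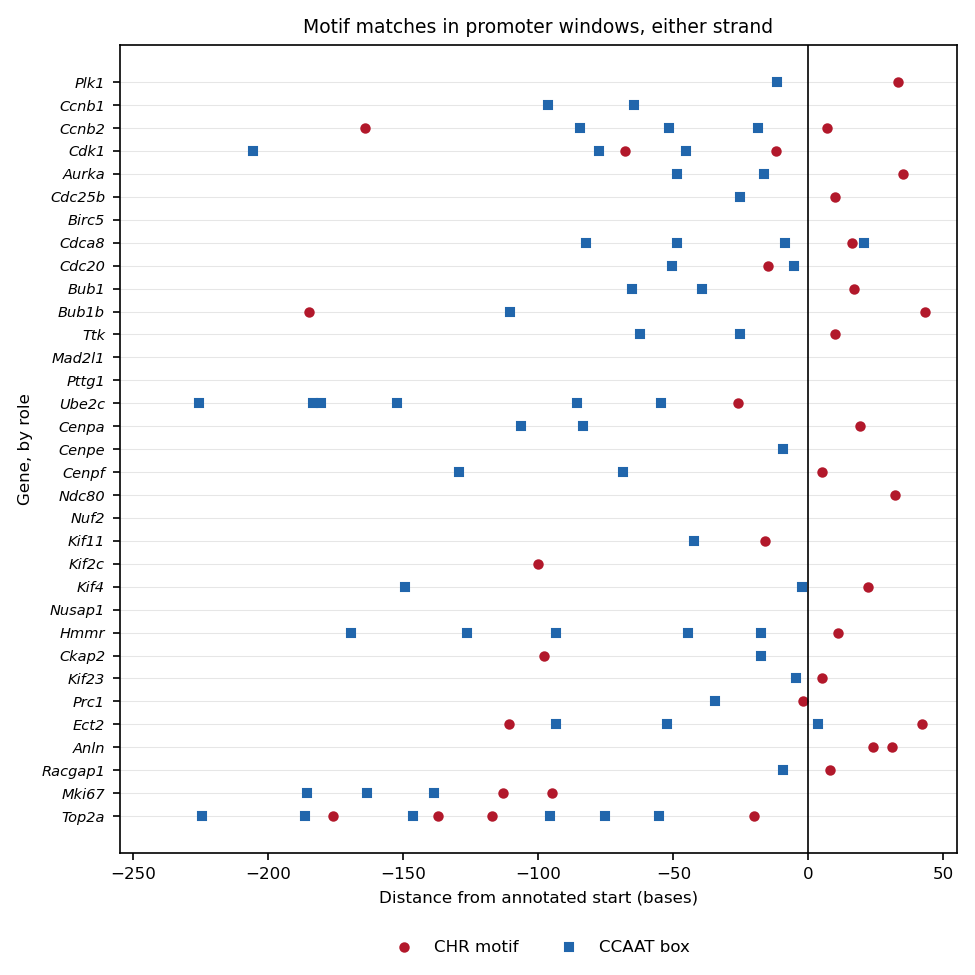
Positions of CHR words and CCAAT boxes in the RefSeq promoter windows of the 33 genes that have one. The x axis is the distance from the annotated start in bases, each row is a gene, and each mark is a match on either strand. In 26 of 33 windows a CHR word was found and in 25 a CCAAT box.

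Library totals ran from 26683563 to 36882310 counts. Mitochondrially encoded genes took between 6.12% and 7.53% of counts in 13 libraries and 8.74% in KO NT replicate 2. Of the labelled cell type, all 8 Lgr5 stem cell markers were detected in every group, with summed levels of 8858 to 14060 CPM (counts scaled to library size, here after trimmed mean of M-values scaling). Markers of stroma and endothelium summed to under 1 CPM in every library, while markers of goblet and Paneth cells were abundant in all groups. Chrm3, the muscarinic receptor gene targeted for deletion in KO mice, was at 8.13 and 6.04 CPM in KO ES libraries, against 11.6 and 10.9 CPM in WT ES libraries. It was at 9.24 and 7.71 CPM in KO NT libraries, against 11.2 and 13.0 CPM in WT NT libraries. The KO groups did not overlap with the WT groups, but the difference passed the test in ES (log2 fold change -0.68 ± 0.17, adjusted p = 0.0363) and missed it in NT (-0.50 ± 0.16, adjusted p = 0.120). Counts are over the whole gene, so the floxed part alone was not measured.

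Per kilobase of exon, the most abundant of the 40 genes in WT NT libraries was Mki67, the proliferation marker known as Ki-67, which coats mitotic chromosomes, with 64.8 ± 0.682 CPM per kb (SD, n = 2). Top2a, the topoisomerase that untangles sister chromatids, followed with 57.1 ± 1.08 CPM per kb, and Ccnb2, Ccna2 and Cdc20 came next with 39.97, 37.9 and 36.4 CPM per kb. The lowest were the kinetochore gene Ndc80 with 3.44 ± 0.158 CPM per kb and the phosphatase gene Cdc25c with 2.85 ± 0.0187 CPM per kb. The same 5 genes led the order in KO NT libraries, where Mki67 had 79.6 ± 7.17 and Top2a 74.0 ± 0.910 CPM per kb. Within either group the spreads of Mki67 and Top2a left Mki67 above Top2a in WT NT libraries, while in KO NT libraries the ranges were 74.5 to 84.7 and 73.4 to 74.6 CPM per kb and overlapped. Levels below are CPM, not divided by length, and compare groups for 1 gene at a time.

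Across the Chrm3 experiment, WT NT libraries stood apart from the rest. The mean log2(CPM + 1) of the 40 genes was 6.405 ± 0.0376 in KO ES, 6.4 ± 0.0534 in KO NT, 6.237 ± 0.0284 in WT ES and 6.009 ± 0.00324 in WT NT (SD, n = 2 each). Both WT NT libraries were below all 6 other libraries in 36 of the 40 genes, a count made after the values were seen. The same held for 6.84% of all tested genes. The 4 genes in which it did not hold were Mki67, Cenpe, Cenpf and Pttg1. The group mean was lowest in WT NT for 37 genes and in WT ES for 3, and it was highest in KO ES for 21, in KO NT for 18 and in WT ES for 1. The 3 comparisons that contain the WT NT libraries (ES in WT, KO against WT in NT, and the difference of the ES effects) share those 2 libraries and are not separate evidence. In bulk RNA of sorted cells, a lower share of cells in G2 or mitosis and less of these mRNAs per cell cannot be told apart.

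**Figure D2:**
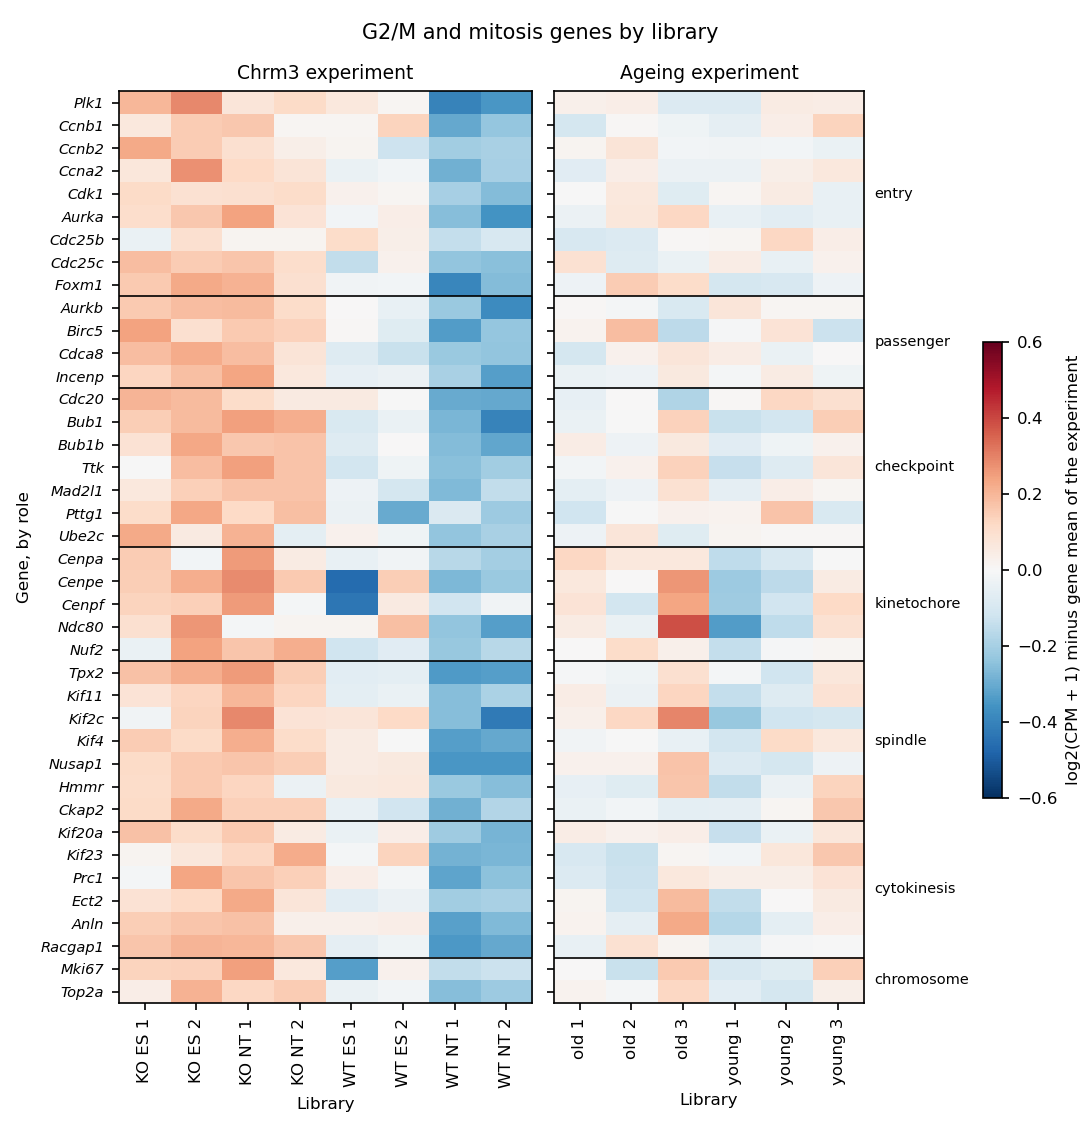
Level of each of the 40 genes in each library, as log2(CPM + 1) minus the gene's mean over the libraries of the same experiment, with genes in rows ordered by role and libraries in columns. The 2 WT NT columns are the lowest in 36 of the 40 rows, whereas old and young columns show no such block.

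The comparison of KO with WT in NT asked what differed without ES between mice given tamoxifen for the deletion and mice given vehicle. Of the 40 genes, 30 rose in KO NT stem cells and 0 fell, and the median log2 fold change was 0.39, against -0.01 over all tested genes. Over all genes 2.36% rose and 2.11% fell in edgeR's quasi-likelihood test at an adjusted p under 0.05. All 40 log2 fold changes lay above 0, between 0.14 for Cdc25b and 0.58 for Bub1, where 47.8% of all tested genes lay above 0. The KO NT and WT NT libraries did not overlap in any of the 40 genes. Over all genes, 22.7% were higher and 25.4% lower with no overlap between these groups.

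Racgap1, a subunit of the centralspindlin complex of the central spindle, was at 127 and 124 CPM in KO NT libraries, against 87.1 and 89.4 CPM in WT NT libraries. It rose by a log2 fold change of 0.51 ± 0.06 (adjusted p = 0.000784). Bub1, a checkpoint kinase, was at 68.0 and 66.7 CPM in KO NT libraries, against 47.1 and 43.1 CPM in WT NT libraries. The groups did not overlap, and Bub1 rose by 0.58 ± 0.07 on the log2 scale (adjusted p = 0.00116). Tpx2, which activates Aurka and nucleates spindle microtubules, was at 102 and 94.9 CPM in KO NT libraries, against 67.5 and 67.8 CPM in WT NT libraries (log2 fold change 0.55 ± 0.06, adjusted p = 0.000931). Nusap1, which bundles spindle microtubules, was at 91.7 and 90.4 CPM in KO NT libraries, against 63.7 and 63.7 CPM in WT NT libraries (0.52 ± 0.06, adjusted p = 0.000885). These 4 genes passed the test whichever single library of the experiment was left out. In GRCm38, GENCODE M21 places Racgap1 at chr15:99620496-99651656 on the minus strand, Bub1 at chr2:127801122-127831865 on the minus strand, Tpx2 at chr2:152847964-152895321 on the plus strand and Nusap1 at chr2:119618298-119651244 on the plus strand. The polo kinase gene Plk1 was at 85.6 and 88.0 CPM in KO NT libraries, against 61.2 and 63.6 CPM in WT NT libraries, and rose by 0.48 ± 0.06 (adjusted p = 0.00238).

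By role, the central spindle and cytokinesis genes passed in 6 of 6 cases. Beside Racgap1 these were Kif23 (0.46 ± 0.07), its mitotic kinesin relative Kif20a (0.36 ± 0.07), Prc1, which bundles the central spindle (0.44 ± 0.08), Ect2, an exchange factor that starts furrow formation (0.36 ± 0.07), and Anln (anillin, 0.41 ± 0.07). The chromosomal passenger complex, which corrects faulty attachments, passed in 4 of 4. The passenger genes had close values, with log2 fold changes from 0.37 for Cdca8 (borealin) to 0.46 for its kinase Aurkb, and Birc5 (survivin) and Incenp lay between them. Aurkb was at 72.9 and 69.0 CPM in KO NT libraries, against 54.5 and 48.8 CPM in WT NT libraries. The spindle motors and microtubule-binding proteins passed in 6 of 7 cases, with Hmmr missing narrowly (0.29 ± 0.07, adjusted p = 0.0513). Among them were Kif11, the motor that pushes the spindle poles apart (0.39 ± 0.06), the chromokinesin Kif4 (0.49 ± 0.07), and Kif2c, a kinesin that shortens microtubules (0.54 ± 0.10).

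The genes of mitotic entry passed in 6 of 9 cases, with Plk1, Aurka (0.48 ± 0.08) and Ccna2 (0.34 ± 0.07) beside the 3 given next. Cdk1 was at 90.7 and 91.5 CPM in KO NT libraries, against 73.8 and 70.7 CPM in WT NT libraries, and rose by 0.33 ± 0.06 (adjusted p = 0.0113). Ccnb1, its cyclin partner, was at 89.5 and 80.5 CPM in KO NT libraries, against 64.4 and 67.8 CPM in WT NT libraries (0.36 ± 0.08, adjusted p = 0.0244). Foxm1 was at 75.7 and 70.1 CPM in KO NT libraries, against 49.6 and 54.5 CPM in WT NT libraries (0.49 ± 0.07, adjusted p = 0.00437). Each of these genes was higher in both KO NT libraries than in both WT NT libraries. Ccnb2 (0.27 ± 0.07, adjusted p = 0.0605), Cdc25c (0.40 ± 0.10, adjusted p = 0.0502) and Cdc25b (0.14 ± 0.08, adjusted p = 0.395) did not pass.

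The spindle checkpoint and anaphase genes passed in 5 of 7 cases. Cdc20 was at 90.9 and 87.3 CPM in KO NT libraries, against 68.0 and 67.9 CPM in WT NT libraries, and rose by 0.39 ± 0.06 (adjusted p = 0.00551). The checkpoint genes Bub1b (0.46 ± 0.07), Ttk (0.45 ± 0.09) and Mad2l1 (0.38 ± 0.07) also rose, while Ube2c, the ubiquitin-conjugating enzyme of the APC/C, and Pttg1 (securin) had log2 fold changes of 0.30 ± 0.09 and 0.32 ± 0.12 and did not pass. The centromere and kinetochore genes passed in 2 of 5 cases, Cenpa, the centromeric histone variant (0.35 ± 0.08), and Nuf2, a subunit of the Ndc80 complex (0.40 ± 0.09). Of the chromosome genes, Top2a was at 661 and 673 CPM in KO NT libraries, against 507 and 521 CPM in WT NT libraries, and rose by 0.38 ± 0.06 (adjusted p = 0.00779). Mki67 was at 852 and 749.8 CPM in KO NT libraries, against 647 and 657 CPM in WT NT libraries, and did not pass (0.30 ± 0.10, adjusted p = 0.142).

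Without WT NT replicate 1, 5 genes rose, and without WT NT replicate 2, 6 rose. Each of these fits leaves 1 library in the WT NT group, which is assumed to vary like the other groups. Over all fits with 1 library left out, log2 fold changes ran from 0.45 to 0.50 for Plk1 and from 0.36 to 0.40 for Top2a. Ranges were wider for other genes, such as 0.38 to 0.54 for Aurkb, 0.43 to 0.66 for Kif2c and 0.24 to 0.46 for Cenpa. Without a count filter 19 rose. Other cell types and early response genes moved with the same comparison. Goblet markers summed to 2425 to 2507 CPM in KO NT libraries, against 4832 to 4946 CPM in WT NT libraries, and 7 of 7 fell. Tuft markers summed to 22.0 to 29.6 CPM in KO NT libraries, against 58.0 to 60.3 CPM in WT NT libraries, and 4 of the 4 tested fell. Immediate early genes such as Jun and Atf3 summed to 2850 to 4282 CPM in KO NT libraries, against 1472 to 1488 CPM in WT NT libraries, and 9 of 10 rose. Lgr5 stem cell markers had a median log2 fold change of -0.06, with 0 of 8 passing. The part of these shifts in the result was not tested.

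**Figure D3:**
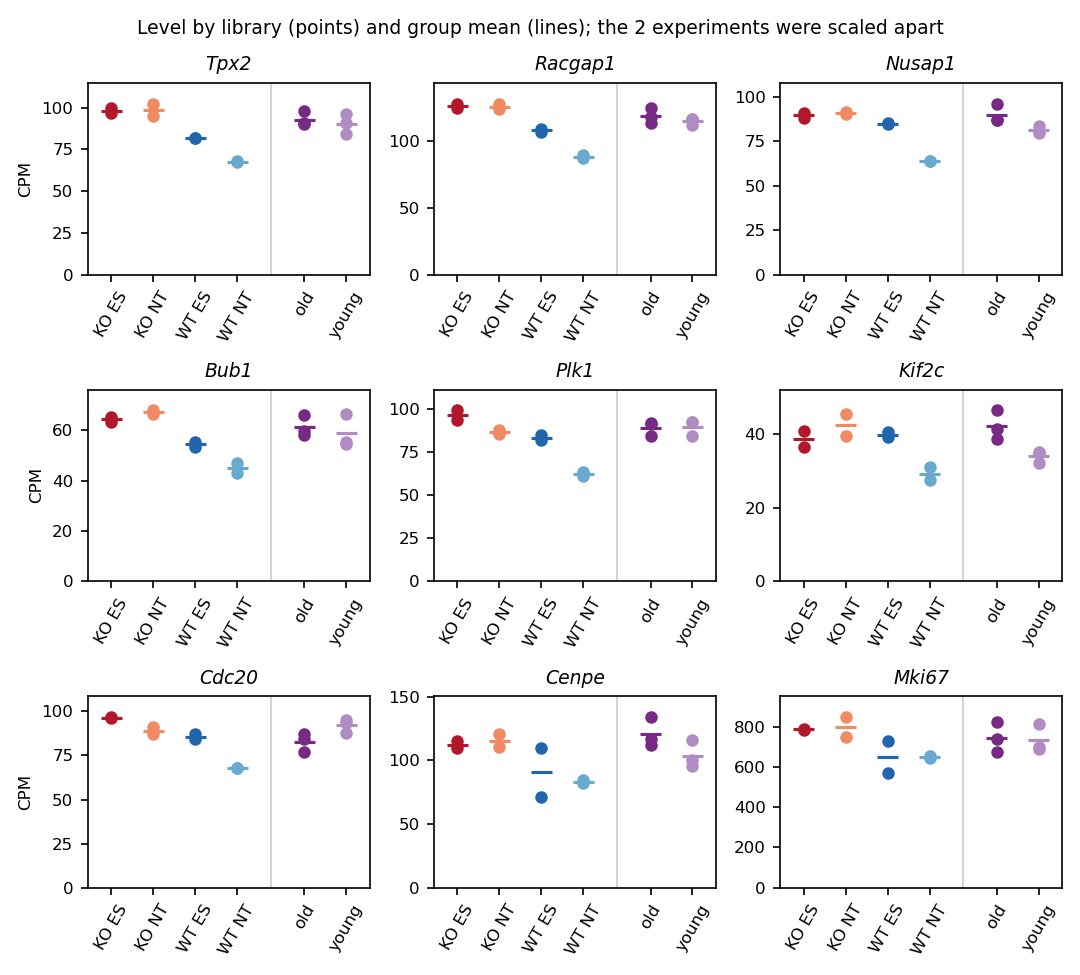
CPM of 9 of the genes in each library (points) with the group mean (line), in KO ES, KO NT, WT ES and WT NT libraries and, scaled apart, in old and young libraries. Tpx2, Racgap1, Nusap1, Bub1, Plk1 and Cdc20 are lowest in both WT NT libraries, Kif2c is higher in all 3 old libraries than in all 3 young ones, and Cenpe and Mki67 are low in 1 of the 2 WT ES libraries.

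The comparison of ES with NT in WT asked what ES changed in stem cells of WT mice. Of the 40 genes, 12 rose in WT ES stem cells and 0 fell, with a median log2 fold change of 0.25, against -0.00 over all tested genes. Over all genes, 2.10% rose and 1.39% fell. The 12 were Nusap1, Plk1, Cdc20, Kif4, Kif23, Racgap1, Anln, Ccnb1, Kif2c, Tpx2, Foxm1 and Cdk1. Log2 fold changes were above 0 for 37 of 40 genes, where 49.3% of all tested genes lay above 0. WT ES libraries were higher than WT NT libraries with no overlap in 36 of the 40. Over all genes, 26.0% were higher and 26.9% lower with no overlap.

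Nusap1 was at 84.5 and 85.0 CPM in WT ES libraries, against 63.7 and 63.7 CPM in WT NT libraries, and rose by 0.41 ± 0.06 on the log2 scale (adjusted p = 0.00755). Plk1 was at 84.8 and 81.9 CPM in WT ES libraries, against 61.2 and 63.6 CPM in WT NT libraries (0.42 ± 0.07, adjusted p = 0.00990). Cdc20 was at 87.4 and 84.1 CPM in WT ES libraries, against 68.0 and 67.9 CPM in WT NT libraries (0.34 ± 0.06, adjusted p = 0.0183). In each of these genes the 2 libraries of a group lay close together and the groups far apart. Kif4 was at 64.1 and 61.9 CPM in WT ES libraries, against 49.0 and 49.9 CPM in WT NT libraries (0.35 ± 0.07, adjusted p = 0.0259). Kif23, the motor subunit of the centralspindlin complex whose other subunit is Racgap1, was at 114 and 126 CPM in WT ES libraries, against 94.2 and 94.7 CPM in WT NT libraries (0.34 ± 0.07, adjusted p = 0.0273).

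The genes of mitotic entry passed in 4 of 9 cases, the spindle genes in 4 of 7, the cytokinesis genes in 3 of 6 and the checkpoint genes in 1 of 7. The passenger complex (0 of 4), the kinetochore genes (0 of 5) and the chromosome genes (0 of 2) had no passing member. Cdk1 was at 86.4 and 85.5 CPM in WT ES libraries, against 73.8 and 70.7 CPM in WT NT libraries, and passed narrowly (0.25 ± 0.06, adjusted p = 0.04996). Ccnb1 rose by 0.35 ± 0.08 and Foxm1 by 0.31 ± 0.07 (adjusted p = 0.0396 and 0.0478). Aurkb was at 0.28 ± 0.07 on the log2 scale (adjusted p = 0.0636) and Top2a at 0.21 ± 0.06 (adjusted p = 0.101), neither with overlap between the groups. Besides Mki67, only Cenpf (-0.10 ± 0.14) and Pttg1 (-0.01 ± 0.13) lay below 0.

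The large genes Mki67, Cenpe and Cenpf differed between the 2 WT ES libraries. Mki67 was at 570.3 and 731 CPM in WT ES libraries, against 647 and 657 CPM in WT NT libraries, so the groups overlapped (-0.00 ± 0.10, adjusted p = 0.994). The kinetochore motor Cenpe was at 71.5 and 109.5 CPM in WT ES libraries, against 81.9 and 84.6 CPM in WT NT libraries, which lie between them. The level in WT ES replicate 1 over that in replicate 2 was 0.653 for Cenpe (8.62 kb of exon), 0.708 for Cenpf (15.43 kb) and 0.781 for Mki67 (10.06 kb), and between 0.882 and 1.22 for the other 37 genes. Cenpf and Mki67 have the longest exon sequence of the 40 genes, and Anln (9.06 kb) and Top2a (9.01 kb) had ratios of 0.993 and 0.985. The part of transcript length or library quality in this gap was not tested.

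With 1 library left out, between 0 and 22 genes rose. The count was 0 without WT ES replicate 1, WT NT replicate 1 or WT NT replicate 2, 1 without WT ES replicate 2, and 22 without KO NT replicate 2. It was 26 when the 4 WT libraries were fitted alone, and 2 without a count filter. Goblet markers summed to 9865 to 10060 CPM in WT ES libraries, against 4832 to 4946 CPM in WT NT libraries, and 7 of 7 rose. Lgr5 stem cell markers summed to 8858 to 9220 CPM in WT ES libraries, against 11430 to 11650 CPM in WT NT libraries, and 8 of 8 fell. Enteroendocrine markers summed to 235 to 241 CPM in WT ES libraries, against 135 to 147 CPM in WT NT libraries, and 3 of 6 rose. In KO against WT in NT the mitotic genes were higher beside lower goblet markers, and in ES against NT in WT they were higher beside higher goblet markers. Both comparisons share the WT NT libraries, and the part of these marker shifts in the mitotic genes was not tested.

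The comparison of ES with NT in KO asked what ES changed in stem cells of KO mice. No gene passed in either direction (edgeR), 1 was higher and 0 lower at an unadjusted p under 0.05 (over all genes 4.61% and 3.99%), and the median log2 fold change was 0.00, against -0.00 over all tested genes. Over all genes, 0.415% rose and 0.0979% fell. DESeq2 and limma-voom also called 0 genes. The log2 fold changes lay between -0.13 and 0.19 with standard errors of 0.06 to 0.15, and the smallest adjusted p was 0.531, for Plk1. Plk1 was at 93.4 and 99.4 CPM in KO ES libraries, against 85.6 and 88.0 CPM in KO NT libraries (0.15 ± 0.06). Next came Ndc80 (0.19 ± 0.09) and Cdc20 (0.12 ± 0.06) among the higher genes, and Kif23 (-0.13 ± 0.07), Kif2c (-0.13 ± 0.10) and Ttk (-0.12 ± 0.09) among the lower ones. KO ES libraries were higher with no overlap in 4 genes (Plk1, Cdc20, Ccnb2 and Ndc80) and lower in 3 (Bub1, Kif23 and Mad2l1), where the shares over all genes were 17.1% and 16.1%. Cdk1 was at 92.02 and 90.5 CPM in KO ES libraries, against 90.7 and 91.5 CPM in KO NT libraries, and the groups overlapped. Goblet markers again rose in 6 of 7 cases, to 4152 to 4154 CPM in KO ES libraries, against 2425 to 2507 CPM in KO NT libraries. Paneth markers rose in 3 of 6 cases, and absorptive enterocyte markers fell in 3 of 7 (median log2 fold change -1.2). The immune marker gene Lyz2 also rose. Of 10 immediate early genes 0 passed, and 7 were lower at an unadjusted p under 0.05. The part of these shifts was not tested.

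Whether ES acted differently in KO and WT was tested directly, as the ES effect in KO minus that in WT. No gene passed (edgeR, 0 of 40 in either direction), and over all genes 0.0115% were higher and 0.0979% lower. At an unadjusted p under 0.05, 20 genes were lower and 0 higher, where over all genes 6.20% were lower and 5.31% higher. Of 40 differences, 38 were below 0, where 51.7% of all genes lay above 0, and the median was -0.23, against 0.01 over all tested genes. The smallest adjusted p values were 0.112 for Nusap1 (-0.43 ± 0.08) and 0.118 for Kif23 (-0.47 ± 0.10). Kif2c had the largest difference in size, -0.58 ± 0.14 (adjusted p = 0.153). Cenpf (0.11 ± 0.19) and Pttg1 (0.03 ± 0.17) were the 2 above 0. DESeq2 called 2 genes lower. The ES effect passed for 12 genes in WT and for none in KO, but the genotypes were not shown to differ in it at this replication.

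KO and WT were also compared under ES. In this comparison 3 genes rose in KO ES stem cells and 0 fell, with a median log2 fold change of 0.17, against 0.00 over all tested genes. Over all genes, 3.09% rose and 4.47% fell. Cdca8 was at 82.7 and 84.8 CPM in KO ES libraries, against 68.7 and 66.0 CPM in WT ES libraries (0.31 ± 0.07, adjusted p = 0.0179). Tpx2 was at 96.8 and 99.6 CPM in KO ES libraries, against 81.9 and 82.0 CPM in WT ES libraries (0.26 ± 0.06, adjusted p = 0.0330). Racgap1 was at 124 and 128 CPM in KO ES libraries, against 107 and 109 CPM in WT ES libraries (0.23 ± 0.06, adjusted p = 0.0386). All 3 had both KO ES libraries above both WT ES libraries. The same was true of 34 of the 40 genes, whereas 27.0% of all genes were higher and 26.3% lower with no overlap. At an unadjusted p under 0.05, 22 genes were higher and 0 lower, where over all genes 11.3% were higher and 11.7% lower. None rose without KO ES replicate 2, WT ES replicate 1, WT NT replicate 1 or WT NT replicate 2, or without a count filter.

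Among the genes that did not pass under ES, Mki67 was at 787 and 790.3 CPM in KO ES libraries, against 570.3 and 731 CPM in WT ES libraries (0.28 ± 0.10, adjusted p = 0.124). Plk1 (0.21 ± 0.06), Foxm1 (0.21 ± 0.07), Aurkb (0.20 ± 0.07), Cdc20 (0.17 ± 0.06) and Top2a (0.16 ± 0.06) lay between adjusted p values of 0.0761 and 0.165. Cdk1 (0.09 ± 0.06) and Ccnb1 (0.04 ± 0.08) had smaller values, and Cdc25b (-0.04 ± 0.08), Kif2c (-0.04 ± 0.10) and Kif23 (-0.02 ± 0.07) lay below 0. Markers of absorptive enterocytes summed to 364 to 474 CPM in KO ES libraries, against 805 to 1053 CPM in WT ES libraries, and 6 of 7 fell. Goblet markers fell in 7 of 7 cases, enteroendocrine markers in 5 of 6 (median log2 fold change -0.75) and tuft markers in 2 of the 4 tested. Lgr5 stem cell markers rose in 5 of 8 cases and immediate early genes in 4 of 10. The part of these shifts was not tested.

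**Figure D4:**
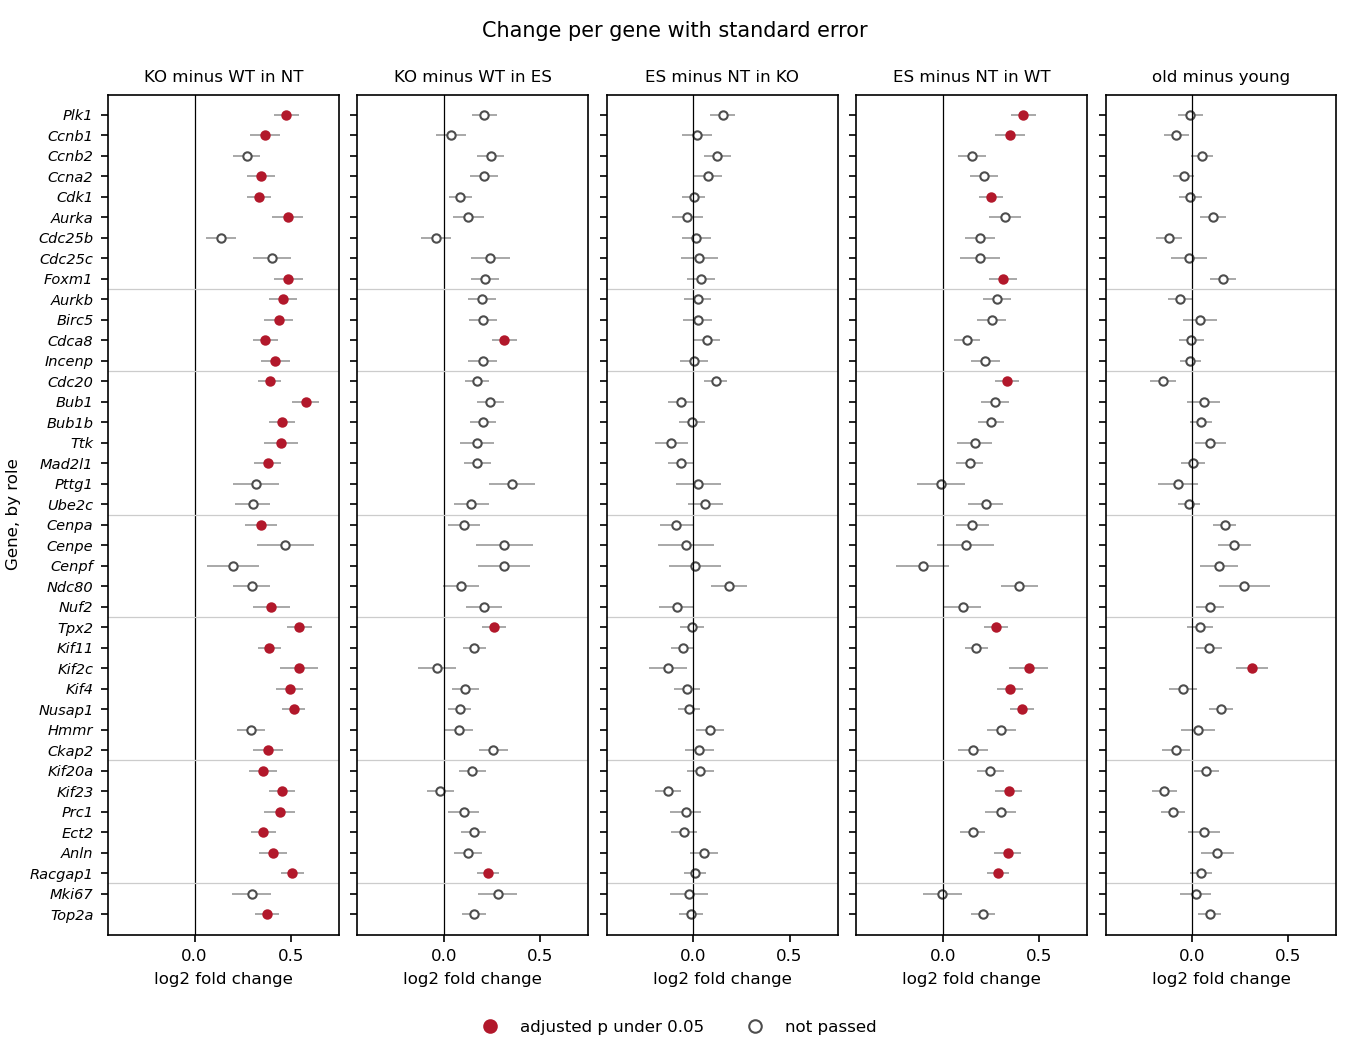
Log2 fold change of each of the 40 genes with its standard error, with genes in rows by role, for 5 comparisons in columns. Filled points mark an adjusted p under 0.05. All 40 points lie above 0 for KO against WT in NT, where 30 passed, and the points of ES against NT in KO lie between -0.13 and 0.19, where 0 passed.

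In the ageing experiment the genes differed little. Of the 40 genes, 1 rose in old stem cells and 0 fell, with a median log2 fold change of 0.04, against -0.00 over all tested genes. Over all genes, 4.42% rose and 3.42% fell, so the count was below the background share. Kif2c was at 38.7, 41.3 and 46.5 CPM in old libraries, against 32.2, 34.7 and 35.1 CPM in young libraries. The groups did not overlap, and Kif2c rose by 0.31 ± 0.08 on the log2 scale (adjusted p = 0.0460), but it did not pass when any 1 of the 6 libraries was left out, under limma-voom or without a count filter. Old libraries were higher with no overlap in 4 genes (Aurka, Kif2c, Cenpa and Nusap1) and lower in 3 (Cdc20, Aurkb and Cdc25b), where the share over all genes was 13.2% higher and 13.2% lower. At an unadjusted p under 0.05, 5 genes were higher and 2 lower, where over all genes 10.9% were higher and 10.6% lower.

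The kinetochore genes all had log2 fold changes above 0 with age, between 0.09 for Nuf2 and 0.27 for Ndc80, and 0 of 5 passed. Of all tested genes, 49.8% lay above 0. Cenpe was at 116.5, 112 and 134 CPM in old libraries, against 95.7, 99.9 and 115.5 CPM in young libraries, and the groups overlapped (0.22 ± 0.09, adjusted p = 0.162). Cdc20 was at 84.3, 87.5 and 77.0 CPM in old libraries, against 87.7, 95.2 and 93.4 CPM in young libraries (-0.15 ± 0.07, adjusted p = 0.209). Kif23 (-0.15 ± 0.06) and Cdc25b (-0.12 ± 0.07) were next among the lower genes. Mki67 was at 741, 673 and 823 CPM in old libraries, against 691, 702 and 816 CPM in young libraries, with wide overlap (0.02 ± 0.08, adjusted p = 0.937). The log2 fold changes of Plk1, Cdk1, Aurkb, Ccnb1, Top2a and Foxm1 were -0.01, -0.01, -0.06, -0.08, 0.09 and 0.16, with standard errors of 0.06 to 0.07, and their adjusted p values were 0.188 or higher. Immune markers summed to 129 to 143 CPM in old libraries, against 40.02 to 69.5 CPM in young libraries, and 5 of the 6 tested rose. With age 10 of 10 immediate early genes rose, as did 3 of 6 enteroendocrine and 2 of 7 absorptive enterocyte markers. Tuft markers fell in 4 of the 4 tested, Paneth markers in 3 of 6 and Lgr5 stem cell markers in 2 of 8. Goblet markers rose in 3 of 7 cases and fell in 2. The part of these shifts in the mitotic genes was not tested.

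Further genes of the cell cycle were read from other lists, which were also chosen with earlier results of these data known. Of 50 further mitotic genes, all tested, 33 rose in KO NT against WT NT, 10 in WT ES against WT NT, 11 in KO ES against WT ES, 0 in KO ES against KO NT and 2 in old against young, and none fell in any of the 5 comparisons. The shares of all genes that rose were 2.36%, 2.10%, 3.09%, 0.415% and 4.42% in the same order, so the 2 of 50 with age were about the background share. Iqgap3, a scaffold protein, was at 94.0 and 85.5 CPM in KO NT libraries, against 56.3 and 56.9 CPM in WT NT libraries (0.67 ± 0.07, adjusted p = 0.000429). Fam83d, a spindle protein, rose by 0.81 ± 0.10 and Tacc3, a spindle protein bound to Aurka, by 0.52 ± 0.06 in the same comparison. In old libraries Hjurp, the chaperone that deposits Cenpa at centromeres, was at 539, 498 and 568 CPM, against 386, 386 and 401 CPM in young libraries (0.45 ± 0.06, adjusted p = 0.000834). Cit, the citron kinase of cytokinesis, also rose with age (0.38 ± 0.10, adjusted p = 0.0440).

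Genes of DNA replication and S phase, which act at an earlier stage of the cycle, are given beside them. Over all genes, 2.10% rose and 1.39% fell in WT ES against WT NT, and 2.36% and 2.11% in KO NT against WT NT. These shares were 3.09% and 4.47% in KO ES against WT ES, 0.415% and 0.0979% in KO ES against KO NT, and 4.42% and 3.42% with age. Of 35 S phase genes, 6 fell and 0 rose in WT ES against WT NT, with a median log2 fold change of -0.16, against -0.00 over all tested genes. Mcm4, a subunit of the replicative helicase, was at 132 and 133 CPM in WT ES libraries, against 171 and 171 CPM in WT NT libraries (-0.37 ± 0.06, adjusted p = 0.0106). Ung, a DNA glycosylase, and Orc1, a subunit of the origin recognition complex, fell by 0.53 ± 0.09 and 0.56 ± 0.10. In KO NT against WT NT 5 of 35 rose, of which Tyms, the enzyme that makes thymidylate, had the smallest p (0.40 ± 0.08), and 0 fell. In KO ES against WT ES 8 rose, of which the DNA ligase gene Lig1 had the smallest p (0.36 ± 0.07) and Hells, a chromatin remodeller, the largest change (0.51 ± 0.11), and 0 fell. In KO ES against KO NT 0 of 35 passed. With age 6 fell and 0 rose, and Uhrf1, which keeps DNA methylation through replication, had the smallest p (-0.39 ± 0.05, adjusted p = 0.00147).

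The balance between the 2 kinds of genes can be read per library as the mean log2(CPM + 1) of the 40 mitotic genes minus that of the 35 S phase genes. It was 0.011 and -0.03 in KO ES libraries, -0.02 and -0.115 in KO NT libraries, 0.023 and 0.095 in WT ES libraries, and -0.352 and -0.328 in WT NT libraries. WT NT libraries lay below all others of the experiment. It was 0.11, 0.135 and 0.118 in old libraries, against -0.117, -0.064 and 0.018 in young libraries, with no overlap. In the ageing experiment the gap came with an S phase mean of 6.211 ± 0.0434 in old and 6.349 ± 0.014 in young libraries, beside a mitotic mean of 6.332 ± 0.0408 in old and 6.295 ± 0.0568 in young libraries (SD, n = 3 each). These list means were compared after their values were seen and carry no test.

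**Figure D5:**
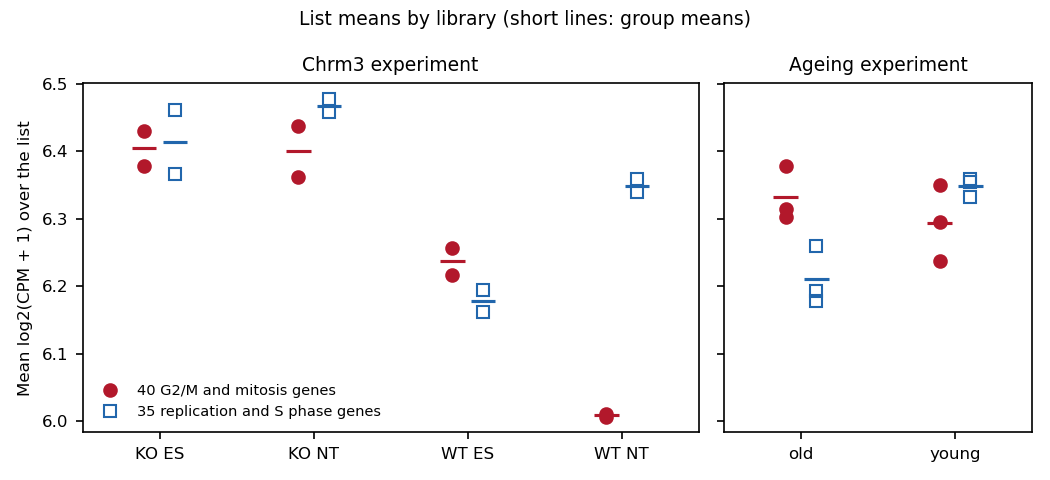
Mean log2(CPM + 1) by library over the 40 mitotic genes (filled circles) and over 35 S phase genes (open squares), with short lines for group means, for KO ES, KO NT, WT ES and WT NT and, scaled apart, for old and young. The mitotic mean is lowest in WT NT at 6.009, while the S phase mean is lowest in WT ES at 6.178 in the Chrm3 experiment and in old at 6.211 in the ageing experiment.

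Lists of regulators of the cycle, and the CDK inhibitors after them, were read in the same way. The shares over all genes given with the S phase genes, from 0.0979% to 4.47%, apply here too. Passing genes are given singly and are not read as a result about their lists. Of 16 genes of the APC/C, the ligase that ends mitosis, 0 passed in KO NT against WT NT and 0 in WT ES against WT NT. In KO ES against WT ES the APC/C subunit gene Anapc4 rose (0.31 ± 0.08), and with age Anapc16 rose while Anapc4 and Cdc16 fell. Of 12 DREAM and MuvB genes, Lin54, the subunit that binds CHR elements, rose in KO NT against WT NT (0.41 ± 0.09, adjusted p = 0.0310), and Rbbp4 rose in KO ES against WT ES (0.24 ± 0.06, adjusted p = 0.0376). Of 13 genes of G1 cyclins, their kinases and E2F factors, Ccnd2 (cyclin D2) and Cdk6 fell in both comparisons against WT NT, while Ccne1 (cyclin E1) rose in KO ES against WT ES. Ccne1 was at 19.0 and 23.0 CPM in KO ES libraries, against 15.5 and 11.8 CPM in WT ES libraries (0.61 ± 0.15, adjusted p = 0.0355). Ccnd2 was at 537 and 531 CPM in KO NT libraries, against 691 and 709.8 CPM in WT NT libraries (-0.39 ± 0.05, adjusted p = 0.00213). It was at 558 and 563 CPM in WT ES libraries (-0.32 ± 0.05, adjusted p = 0.0120). With age Ccnd2 also fell, by 0.26 ± 0.06.

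Among 6 tested genes of CDK inhibitors, which brake the cycle, Cdkn2c rose in KO NT against WT NT (0.36 ± 0.09, adjusted p = 0.0495) and Cdkn2b fell in KO ES against WT ES (-0.82 ± 0.21, adjusted p = 0.0376). With age Cdkn1a (p21) was at 36.6, 41.4 and 30.4 CPM in old libraries, against 27.9, 25.4 and 28.2 CPM in young libraries, and rose by 0.41 ± 0.11 (adjusted p = 0.0408). Cdkn1b (p27) rose by 0.24 ± 0.06 (adjusted p = 0.0265). No inhibitor passed for ES against NT in either genotype.

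Some counts may be shared with neighbours, since 21 of the 40 genes overlap another annotated gene in GENCODE M21 and 8 overlap one on the same strand. The span of Foxm1 overlaps those of the coding genes Tex52 and Gm44596 on its own strand, and the span of Kif11 overlaps a processed pseudogene. Overlaps were taken from gene start to gene end, so shared exon sequence was not measured. Pseudogenes named after Ccnb1, Ccnb2 and Kif4 exist, so reads of these 3 genes may be split or pooled. No label or header gives the strand setting used in counting.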

How the data were processed

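Polyadenylated RNA of sorted intestinal stem cells was made into strand-specific TruSeq libraries, per the labels. The deposited values are raw counts per Ensembl gene, with a table of 8 libraries from the Chrm3 study and another of 6 from the ageing study. FastQC 0.11.2 and the mm10 genome are named in the submitters' processing notes, while an aligner or counting tool was not given in the sources used here. Columns named Ctrl were read as NT.

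Each table was filtered with filterByExpr, scaled by trimmed mean of M-values and fitted apart with edgeR 4.0.16 (R 4.3.3; quasi-likelihood test, one mean per group, Benjamini-Hochberg adjustment over all tested genes, threshold 0.05). A gene that rose or fell passed this test. The ± of a log2 fold change is its standard error, derived from the F statistic. Means over lists use log2(CPM + 1). Alternatives were DESeq2 1.42.0, limma-voom (limma 3.58.1), other scaling, no count filter, a replicate block, fewer groups and leaving out each library. An older form of the quasi-likelihood test was added after seeing the data. The fit was also run on simulated data with the same spread for all genes. The changes put in were larger than those of the 40 genes in the main fit, so changes of their size were not covered. Replicates of every group differed by more than counting noise, so each library was counted on its own. This difference may be technical and does not show separate animals. As chi-square per degree of freedom it was lowest between WT NT replicates (3.471). It was 23.32 for KO NT, 13.7 for KO ES and 12.35 for WT ES. Over the 40 genes, the median ratio of higher to lower replicate was 1.041 in WT NT. It ran from 1.037 to 1.051 in the rest of the Chrm3 experiment. The part of this closeness of WT NT replicates in the results was not tested.

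The 40 genes and all other lists were chosen with earlier results of these data known. Values per library are given for up to 5 passing genes per comparison, by p, and for Mki67, Plk1, Cdc20, Ccnb1, Cdk1, Aurkb, Foxm1 and Top2a, and up to 3 passing genes per other list are named. Cenpe, Cenpf, Cdca8 in the role paragraph and the gene counts around WT NT were chosen after values were seen.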

Additional observations from a re-analysis of the deposited data

How the results depend on the processing

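Other scaling moved no median over all genes by 0.01 or more on the log2 scale. For ES against NT in WT the 12 higher genes became 2 without a count filter, 19 with DESeq2 and 26 with only the 2 groups fitted, and 0 to 22 with 1 library left out. For KO against WT in NT the 30 higher genes became 19 without a count filter and 5 to 31 with 1 library left out. For KO against WT in ES the 3 became 0 without a count filter and 0 to 4 with 1 library left out. For the difference of the ES effects the 0 lower genes became 2 with DESeq2 and 0 to 2 with 1 library left out, where 2 was reached without KO NT replicate 1. For old against young the 1 higher gene became 0 without a count filter, 0 with limma-voom, 0 with the older quasi-likelihood test and 0 to 0 with 1 library left out. The cause of these moves was not tested, and fits with 1 library left out also rest on fewer libraries.

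Replicate numbers are shared between groups, but same-numbered libraries did not all deviate together, so the numbers were not taken as pairs. With a replicate block the higher genes numbered 17 for ES in WT, 34 for KO against WT in NT, 4 for KO against WT in ES and 3 for old against young, and 1 gene was lower in the difference of the ES effects.

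The mean log2 level over the 40 genes differed by 0.005 for ES in KO (-0.033 to 0.042 with 1 library left out), by 0.391 for KO against WT in NT (0.353 to 0.428) and by -0.223 for the difference of the ES effects (-0.261 to -0.185).

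Signs turned only in genes that did not pass. For ES in WT the log2 fold change of Mki67 was 0.004763 with other size factors, 0.005803 without a count filter, 0.002358 with only the 2 groups, and -0.1889 to 0.1643 with 1 library left out. With 1 library left out, ES in KO ranged from -0.1165 to 0.07348 for Mki67, -0.06037 to 0.09896 for Ccnb1, -0.009713 to 0.01394 for Cdk1, -0.02212 to 0.06147 for Aurkb, -0.02093 to 0.09666 for Foxm1 and -0.09887 to 0.07105 for Top2a. KO against WT in ES ranged from -0.02206 to 0.1028 for Ccnb1, and the difference of the ES effects from -0.1862 to 0.1665 for Mki67. Old against young ranged from -0.05616 to 0.09683 for Mki67, -0.05151 to 0.03322 for Plk1 and -0.0477 to 0.02724 for Cdk1.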
